A study of Mus musculus with 6 samples.

Results

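The genes described here make, fold, trim and crosslink collagen: the lysyl oxidases Lox, Loxl1, Loxl2 and Loxl3, the lysyl hydroxylases Plod1, Plod2 and Plod3, the prolyl hydroxylase subunit P4ha1, the collagen chaperone Serpinh1 and the procollagen C-proteinase Bmp1. They were taken by symbol from a table of 22556 genes in mouse heart, and all 10 were found. RNA sequencing had been done on hearts of WT mice that received Ang II (angiotensin II, a peptide hormone that raises blood pressure) under the skin from miniosmotic pumps at 1000 ng/kg/min. The groups were 0 days, called control here, 7 days and 28 days of infusion, with 2 libraries each. The sources used here do not state what the control mice received, the substrain, age or sex, or whether each library came from a separate mouse, so p-values measure only the spread between these libraries.

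Collagen chains are modified while they enter the endoplasmic reticulum. Prolyl hydroxylases such as P4ha1 make the hydroxyprolines that hold the triple helix together, Plod enzymes hydroxylate lysines, and Serpinh1 (HSP47) binds the folded triple helix until it leaves the endoplasmic reticulum. Outside the cell Bmp1 removes the C-terminal propeptide so that fibrils can form, and it also cleaves the propeptide of Lox. Lysyl oxidases, which need copper, then oxidise lysines and hydroxylysines so that neighbouring collagen and elastin molecules become covalently joined. In the heart these steps accompany fibrosis, and crosslinked collagen is known for making the wall stiff.

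Promoter sequences from RefSeq on GRCm38.p6 are given for 4 of the 10 genes, to show the regulatory region of genes measured below. Lox was left out of this search, and Loxl1, Loxl2, Loxl3, Plod2 and Bmp1 were not in the promoter set used, so they were not searched either. Each line gives the 250 bases before the gene's start, 5′ to 3′ on the gene's strand, with ACGTG or its reverse complement CACGT in capitals. ACGTG is 1 form of the core of a hypoxia response element and also overlaps the E-box CACGTG. Other forms of the core were not searched for. The windows are chr4:147936777-147937026 on the minus strand for Plod1, chr5:136986769-136987018 on the plus strand for Plod3, chr10:59323046-59323295 on the plus strand for P4ha1 and chr7:99353240-99353489 on the minus strand for Serpinh1.
Plod1: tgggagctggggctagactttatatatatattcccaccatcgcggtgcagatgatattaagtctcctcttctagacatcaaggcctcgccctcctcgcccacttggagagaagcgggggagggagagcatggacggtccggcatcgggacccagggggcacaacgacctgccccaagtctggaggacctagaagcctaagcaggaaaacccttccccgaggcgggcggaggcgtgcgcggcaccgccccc
Plod3: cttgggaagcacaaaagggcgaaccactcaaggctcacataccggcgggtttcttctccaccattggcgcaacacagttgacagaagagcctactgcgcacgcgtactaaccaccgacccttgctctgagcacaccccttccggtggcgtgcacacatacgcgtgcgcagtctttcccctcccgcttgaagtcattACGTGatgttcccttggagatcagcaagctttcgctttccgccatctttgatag
P4ha1: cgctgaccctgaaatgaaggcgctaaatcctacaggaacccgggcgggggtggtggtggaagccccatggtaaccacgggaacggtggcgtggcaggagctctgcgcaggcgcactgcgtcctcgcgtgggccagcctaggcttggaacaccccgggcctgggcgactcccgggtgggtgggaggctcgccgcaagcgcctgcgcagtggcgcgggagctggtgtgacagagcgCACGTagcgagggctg
Serpinh1: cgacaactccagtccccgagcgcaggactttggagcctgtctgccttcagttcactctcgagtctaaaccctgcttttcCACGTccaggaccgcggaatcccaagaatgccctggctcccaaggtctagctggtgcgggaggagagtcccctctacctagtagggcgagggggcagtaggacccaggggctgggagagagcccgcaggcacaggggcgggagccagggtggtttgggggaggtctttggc
The motif stood 54 bases before the start of Plod3, 16 before that of P4ha1 and 171 before that of Serpinh1, and its letters were not in the Plod1 window. It was found on either strand in 16.6% of 32817 mouse promoters of the same length. GGGCGG, the letters of a GC box, or its reverse complement CCGCCC occurred 2 times for Plod1 and 1 time each for P4ha1 and Serpinh1, against 32.7% of all promoters. CCAAT or ATTGG occurred 1 time for Plod3, against 33.8% of all promoters. These are matches of letters and not measured binding sites.

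Values are RPKM, by definition read counts scaled by transcript length and by the mapped reads of the library. The lengths and read totals used are not given, so levels of different genes can be compared only roughly. RPKM sums ran from 333260 in control replicate 1 to 541590 in 7 day replicate 1. How scaling between libraries bears on the calls is given with the counts over all genes. A gene passed at an adjusted p under 0.05 in limma (Benjamini-Hochberg over the 11096 genes whose mean RPKM reached 1), and log2 changes are on the log2(RPKM + 0.5) scale, which understates changes of low genes such as Lox. All 10 genes would have been kept on their control mean alone, the lowest being Lox at 1.03. Read totals were not given, but the low values put relative depth at 0.89 to 1.17 times that of control replicate 1. This is a rough estimate, since ratios were sought only within a preset range. In the other libraries the most common ratio held a share of 0.07 to 0.17 of the low values. The SD over genes of the log2 ratio between the replicates of a group was 0.31 in control, 0.43 at 7 days and 0.40 at 28 days. Cardiomyocyte markers summed to between 28733 and 38950 RPKM in these heart libraries. Atrial markers summed to 1412 RPKM in control replicate 2 against 105 in control replicate 1. At 7 days they summed to 106 and 144 RPKM and at 28 days to 767 and 387 RPKM, so the infused groups did not overlap. The part of atrial content in the changes between groups was not tested. Adipocyte markers summed to 46.5 RPKM in 28 day replicate 1 against 2.91 in replicate 2.

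After 7 days the lysyl oxidases had the largest rises of the 10 genes, of 1.50 to 2.27 on the log2 scale, and Plod3, Serpinh1 and Bmp1 rose by 0.63 to 0.87. In all, 7 of the 10 genes passed as higher and 0 as lower, where 13.2% of all tested genes passed as higher and 2.27% as lower. Plod1, Plod2 and P4ha1 did not pass. After 28 days 1 gene passed as higher, Loxl1, and 0 passed as lower, where 2.87% of all genes passed as higher and 1.54% as lower. Between 7 and 28 days 5 genes fell, namely Lox, Loxl2, Loxl3, Plod2 and Serpinh1, where 4.26% of all genes fell. By an unadjusted limma p under 0.05, 9 of the 10 were higher and 0 lower at 7 days, where 26.5% of all genes were higher and 5.66% lower. By that rule 2 were higher and 1 lower at 28 days, where 12.8% and 9.32% of all genes were, and 10 were lower at 28 than at 7 days, where 19.1% were.

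**Figure D1:**
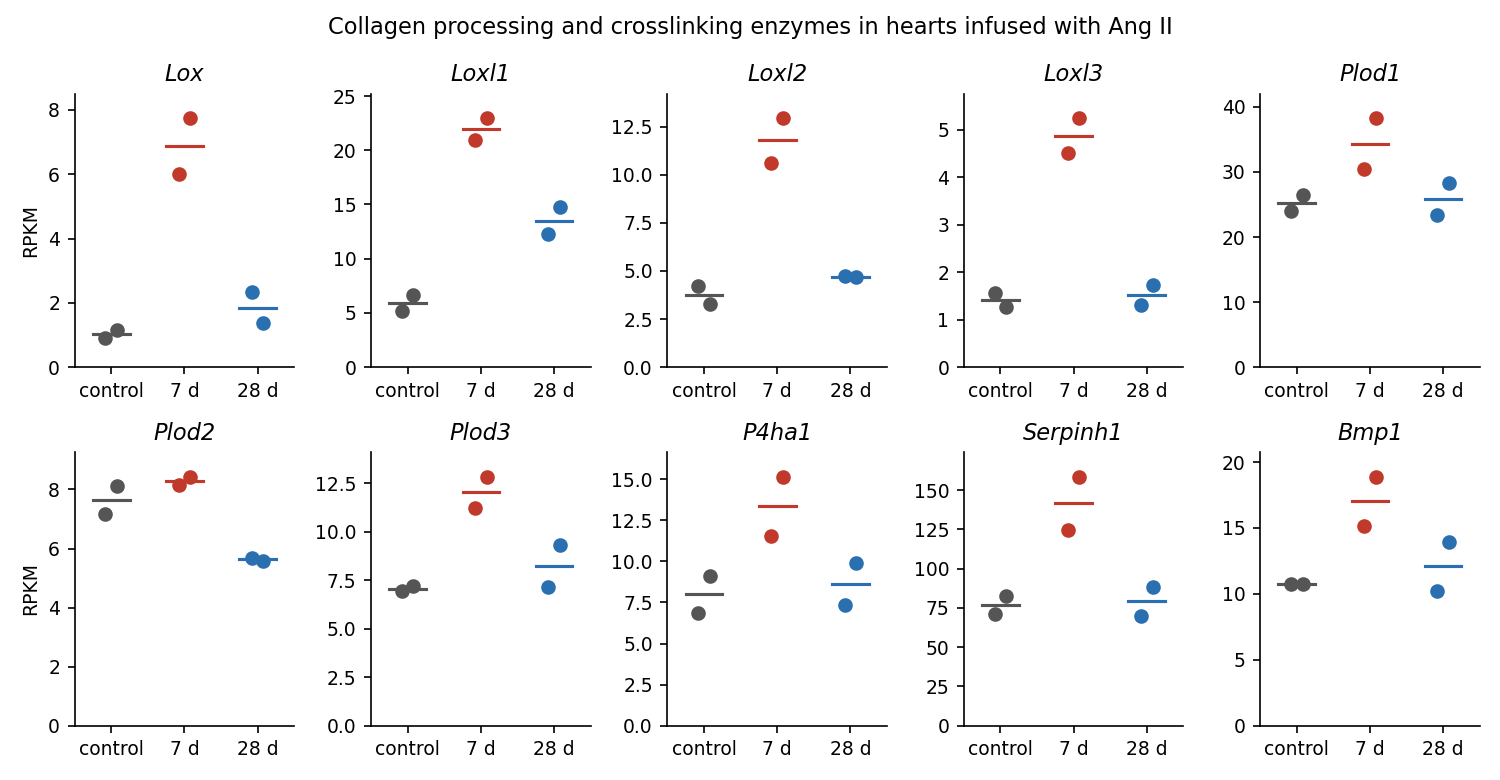
RPKM (vertical axes, each starting at 0) of the 10 genes in the control, 7 day and 28 day groups. Points are libraries and bars are means of 2 libraries. Both 7 day points lie above both control points and both 28 day points for each gene, and Loxl1 is well above control at 28 days also.

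Lox, the founding member of the lysyl oxidase family, was the lowest of the 10 genes in control hearts, with 0.909 and 1.14 RPKM. It stood at 6.003 and 7.74 RPKM at 7 days and at 2.32 and 1.37 RPKM at 28 days. The 7 day libraries were far above all others, and both 28 day libraries were above both controls, one of them only slightly. The change at 7 days was 2.27 ± 0.23 (log2, SE), with adjusted p = 0.0018. At 28 days it was 0.60 ± 0.23 and did not pass (adjusted p = 0.186). From 7 to 28 days Lox fell by 1.67 (adjusted p = 0.0127), a call that ended without 7 day replicate 1 (adjusted p = 0.0592) or 7 day replicate 2 (adjusted p = 0.122).

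Loxl1, which binds elastin and is needed to keep elastic fibres renewed, was the most abundant lysyl oxidase in every library. It measured 5.16 and 6.69 RPKM in control, 20.9 and 22.9 at 7 days, and 12.2 and 14.8 at 28 days. The groups did not overlap, and the 28 day libraries lay between the others. Loxl1 rose by 1.81 ± 0.15 (log2, SE) at 7 days (adjusted p = 0.000964) and by 1.13 ± 0.15 at 28 days (adjusted p = 0.0150). The 28 day call ended without control replicate 1 (0.95). It held without control replicate 2, the library with the highest atrial marker sum (1.30). It also held without 28 day replicate 1, the library with high adipocyte markers (1.26). Both 28 day libraries also had high atrial marker sums, at 767 and 387 RPKM, against 105 in control replicate 1. Leaving out control replicate 2 therefore cannot even out atrial content, whose part in the change of Loxl1 was not tested. The difference between 28 and 7 days was -0.68 (adjusted p = 0.0547), so a fall of Loxl1 after 7 days did not pass.

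Loxl2, a scavenger-receptor type lysyl oxidase that crosslinks collagen IV, measured 4.21 and 3.30 RPKM in control, 10.6 and 12.9 at 7 days and 4.74 and 4.67 at 28 days. Loxl3, its closest relative in the family, measured 1.55 and 1.26 RPKM in control, 4.51 and 5.24 at 7 days and 1.31 and 1.74 at 28 days. For both genes the 7 day libraries stood clear of the rest. At 28 days the libraries of Loxl3 overlapped the controls and those of Loxl2 lay just above them. Loxl2 rose by 1.53 ± 0.15 (log2, SE) at 7 days (adjusted p = 0.00168) and fell by 1.23 from 7 to 28 days (adjusted p = 0.00895). Loxl3 rose by 1.50 ± 0.17 (log2, SE) at 7 days (adjusted p = 0.0029) and fell by 1.41 from 7 to 28 days (adjusted p = 0.0089). The fall of Loxl2 did not pass without 7 day replicate 2, and that of Loxl3 without either 7 day library (highest adjusted p of 0.0923 for Loxl2 and 0.10 for Loxl3). Neither passed against control at 28 days, with 95% intervals from -0.05 to 0.65 for Loxl2 and from -0.32 to 0.48 for Loxl3. Loxl3 overlaps Htra2, a mitochondrial protease gene on the other strand, and strand use in counting is not given. Htra2 changed by 0.04 (log2) at 7 days.

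Loxl4, the remaining lysyl oxidase, was not among the 10 genes and was below the limit for testing, at 0.17 to 0.52 RPKM. The RPKM of all 5 lysyl oxidases summed to 12 and 12.7 in control, 42.3 and 49.4 at 7 days and 20.8 and 22.8 at 28 days. Loxl1 held 43.0% and 52.7% of that sum in control, 49.4% and 46.5% at 7 days and 58.8% and 64.9% at 28 days. Its share at 28 days was above that of every other library. The share of Lox was 7.58% and 9.01% in control, 14.2% and 15.7% at 7 days, and 11.2% and 6.02% at 28 days, so its 28 day libraries lay on both sides of the controls. Loxl3 held 9.93% to 12.9% of the sum in control and at 7 days, and 6.28% and 7.63% at 28 days. These shares are a description with 2 libraries a group and were not tested.

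**Figure D2:**
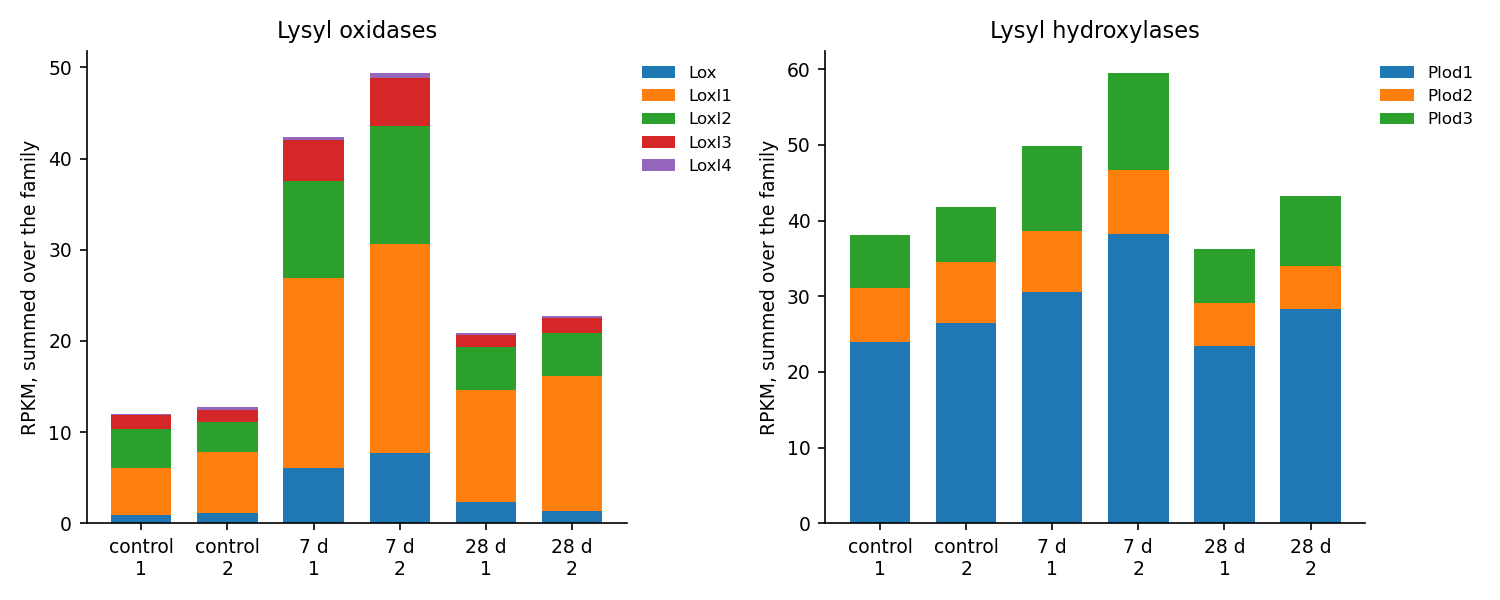
RPKM summed over the 5 lysyl oxidases (left) and the 3 lysyl hydroxylases (right), with 1 stacked bar for each library and colours for genes. The lysyl oxidase sum goes from 12 and 12.7 in control to 42.3 and 49.4 at 7 days, and Loxl1 is the largest block in each bar, while Plod1 is the largest block on the right.

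Whether the paralogs changed by different amounts was tested by subtracting the log2 value of Lox in each library from every gene. At 7 days Loxl1, Loxl2 and Loxl3 differed from Lox by -0.45, -0.74 and -0.77 (log2), with adjusted p = 0.244, 0.060 and 0.0585. None of the 3 passed, where 98.7% of all genes passed as lower than Lox, since Lox rose more than nearly all genes. The 95% intervals were -1.21 to 0.31 for Loxl1, -1.50 to 0.03 for Loxl2 and -1.57 to 0.03 for Loxl3, so smaller rises than that of Lox were within them. When either 28 day library was left out, 2 of the 3 passed as lower, where 99.2% of all genes did. At 28 days 0 of the 3 passed, with differences from 0.53 for Loxl1 to -0.51 for Loxl3, where 2.51% of all genes passed as lower than Lox. There 1 of the 3 passed as lower without 28 day replicate 2, where 72.7% of all genes did.

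The lysyl hydroxylases had smaller 7 day changes. Plod1, which hydroxylates lysines in the triple helix, measured 23.9 and 26.4 RPKM in control, 30.5 and 38.2 at 7 days and 23.4 and 28.4 at 28 days. Its 7 day libraries were above the controls and its 28 day libraries overlapped them. The changes were 0.43 ± 0.15 (log2, SE) at 7 days (adjusted p = 0.0918) and 0.03 ± 0.15 at 28 days, and neither passed.

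Plod2 acts mainly on telopeptide lysines, whose hydroxylation leads to stable pyridinoline crosslinks. It measured 7.17 and 8.13 RPKM in control, 8.15 and 8.43 at 7 days and 5.68 and 5.58 at 28 days. The 7 day libraries were barely above the controls, and both 28 day libraries were the lowest of the 6. The change at 7 days was 0.11 (log2, 95% interval -0.15 to 0.37, adjusted p = 0.535), and its sign turned under median ratio scaling (-0.037) and quantile normalization (-0.062). At 28 days it was -0.41 ± 0.11 and did not pass (adjusted p = 0.090). From 7 to 28 days Plod2 fell by 0.52 (adjusted p = 0.0482), a call that held in only 2 of 15 alternatives, those with another pseudocount, and ended when any 1 of the 6 libraries was left out.

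Plod3, which also adds glucose and galactose to hydroxylysine, measured 6.93 and 7.20 RPKM in control, 11.2 and 12.8 at 7 days and 7.13 and 9.29 at 28 days. It rose by 0.72 ± 0.15 (log2, SE) at 7 days (adjusted p = 0.0197). The call ended without any 1 of the 4 libraries compared (highest adjusted p of 0.129). Its 28 day libraries overlapped the controls (0.19, adjusted p = 0.475). Plod3 overlaps Znhit1 on the other strand, which changed by 0.08 (log2) at 7 days.

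Plod1 held 61.2% to 65.6% of the RPKM summed over the 3 lysyl hydroxylases in all 6 libraries. The share of Plod2 was 18.9% and 19.5% in control, 16.3% and 14.2% at 7 days and 15.7% and 12.9% at 28 days, so all infused libraries were below both controls. The share of Plod3 was 18.2% and 17.3% in control and between 19.7% and 22.5% in the infused libraries. Against Plod1 neither gene passed at either time. The difference at 7 days was -0.32 (log2, 95% interval -0.78 to 0.14) for Plod2 and 0.29 (-0.18 to 0.76) for Plod3, where 2.63% of all genes passed as higher than Plod1 and 9.69% as lower. At 28 days it was -0.44 (-0.90 to 0.02) for Plod2 and 0.16 (-0.31 to 0.62) for Plod3, where 2.39% passed as higher and 2.2% as lower. With each gene's own spread (unmoderated variances) the 7 day intervals were -0.85 to 0.21 for Plod2 and 0.05 to 0.53 for Plod3, the latter above 0. Neither passed after adjustment in limma (adjusted p = 0.378 and 0.311), where 0% of all genes did.

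P4ha1, a catalytic subunit of collagen prolyl 4-hydroxylase, measured 6.85 and 9.13 RPKM in control, 11.6 and 15.1 at 7 days and 7.36 and 9.90 at 28 days. Its 7 day libraries were the highest, with a wide gap between them. The change at 7 days was 0.71 ± 0.20 (log2, SE) and missed the threshold (adjusted p = 0.0573). At 28 days the libraries overlapped the controls (0.10, adjusted p = 0.802).

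Serpinh1 had the highest level of the 10 genes in every library. It measured 71.2 and 82.5 RPKM in control, 125 and 159 at 7 days and 70.2 and 88.1 at 28 days. It rose by 0.87 ± 0.16 (log2, SE) at 7 days (adjusted p = 0.0155), and its 28 day libraries lay on both sides of the controls (0.04, 95% interval -0.35 to 0.42). From 7 to 28 days it fell by 0.83 (adjusted p = 0.0369). The rise ended when either control or 7 day replicate 2 was left out (adjusted p = 0.121, 0.055 and 0.091). The fall held without 28 day replicate 2 and ended when any 1 of the other 5 libraries was left out (highest adjusted p of 0.190).

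Bmp1 measured 10.8 and 10.7 RPKM in control, 15.2 and 18.9 at 7 days and 10.3 and 13.9 at 28 days. The controls were nearly equal, and both 7 day libraries were above every other library. It rose by 0.63 ± 0.17 (log2, SE) at 7 days (adjusted p = 0.0463), the weakest of the 7 calls. The call held in 7 of 15 alternatives and ended without any 1 of the 4 libraries compared (highest adjusted p of 0.215). At 28 days the change was 0.15 (adjusted p = 0.653).

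**Figure D3:**
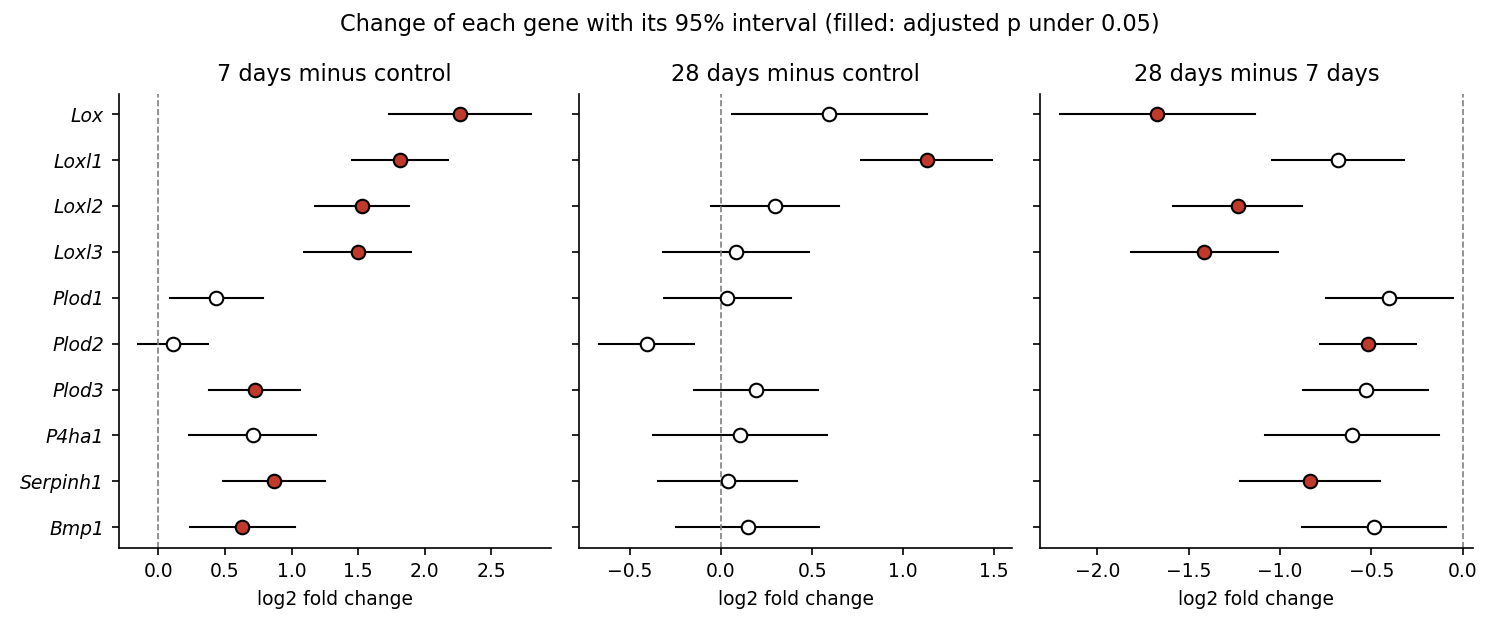
Log2 fold change (horizontal axes) of each gene in the 3 comparisons, each infused group with control and then the infused groups with each other, with 95% intervals from limma as lines. Filled points have an adjusted p under 0.05: there are 7 at 7 days, 1 at 28 days (Loxl1) and 5 between the times, all of them negative.

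The median log2 change of the 10 genes was 0.80 at 7 days, against 0.14 over all tested genes, and 0.12 at 28 days, against 0.01. For 28 against 7 days it was -0.64, against -0.12. In all 10 genes both 7 day libraries exceeded both controls, where 48.6% of all genes did so. At 28 days 3 genes, Lox, Loxl1 and Loxl2, were above both controls and 1, Plod2, was below, where 28.8% of all genes were above and 25.8% below. The 28 day libraries were under both 7 day libraries in all 10 genes, where 41.2% of all genes were. Of the calls over all genes at 7 days 85.3% were higher. Median ratio scaling between libraries moved the median of all genes from 0.14 to -0.01 and that share to 63.1%, and quantile normalization moved it to 57.1%. The rises of the 4 lysyl oxidases, Plod3 and Serpinh1 passed under both. Leaving out control replicate 1, control 2 or 7 day replicate 2 made the count at 7 days 4 of 10, and these 4 were the lysyl oxidases. The share of all genes passing as higher was then 3.06%, 4.21% and 3.16%.

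The order of the levels changed with the lysyl oxidases. In control hearts Serpinh1 was highest, followed by Plod1 and Bmp1, then P4ha1, Plod2 and Plod3, whose libraries overlapped, then Loxl1, Loxl2, Loxl3 and Lox without overlap between neighbours. At 7 days Loxl1 came after Serpinh1 and Plod1, above both libraries of Bmp1. P4ha1, Plod3 and Loxl2 followed with overlapping values, and Plod2, Lox and Loxl3 came last, without overlap. At 28 days Loxl1 and Bmp1 overlapped, as did P4ha1 and Plod3, and Lox and Loxl3 overlapped at the low end.

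Hearts are mixtures of cells, and in whole tissue more cells of a type and more RNA per cell cannot be told apart. Several lists of marker genes differed between control and 7 days. Fibroblast markers (Pdgfra, Dcn, Lum, Tcf21 and Ddr2) summed to 362 to 367 RPKM in control, 482 to 499 at 7 days and 296 to 410 at 28 days, and 1 of 5 rose at 7 days. Activated fibroblast markers (Postn, Cthrc1 and Meox1) summed to 17.3 to 18.0 RPKM in control, about 178 in both 7 day libraries and 36.1 in both 28 day libraries, and 3 of 3 rose at 7 days. Macrophage markers summed to 183 to 198 RPKM in control, 318 to 337 at 7 days and 112 to 161 at 28 days, and 5 of 5 rose at 7 days. Smooth muscle markers summed to 61.5 to 80.003, 129 to 187 and 84.1 to 105 RPKM, with 2 of 4 rising at 7 days, and endothelial markers to 146 to 154, 209 to 249 and 159 to 191 RPKM, with 3 of 5. The part of activated fibroblasts, macrophages, smooth muscle and endothelium in the 7 day changes was not tested. Pericyte markers did not rise, with sums of 145 to 149, 121 to 142 and 112 to 117 RPKM. At 7 days 0 of 3 rose and 1 fell, Abcc9, by 0.49 (adjusted p = 0.0198). Rgs5 and Kcnj8 changed by -0.01 and -0.27 and did not pass. Mesothelial markers summed to 4.93 to 7.22, 4.22 to 6.58 and 5.27 to 6.42 RPKM. Of these 3 genes Wt1 rose at 7 days, by 0.71 (adjusted p = 0.0401), while the median of the list was -0.26. Cartilage and valve markers stayed at or below 0.71 RPKM in sum.

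The 10 genes were also measured relative to the 5 fibroblast markers, by subtracting the markers' mean log2 value of each library. That mean was 0.43 higher at 7 days than in control and changed by -0.10 at 28 days. Of the 5 markers Lum rose most at 7 days, by 1.20 (limma adjusted p = 0.00297). Pdgfra, Dcn, Tcf21 and Ddr2 changed by 0.11 to 0.32 and did not pass. At 7 days the 4 lysyl oxidases passed as higher than the markers, where 2.87% of all genes did. The differences were 1.84 for Lox (95% interval 1.32 to 2.36), 1.38 for Loxl1 (0.93 to 1.84), 1.10 for Loxl2 (0.68 to 1.52) and 1.07 for Loxl3 (0.56 to 1.58). Plod1, Plod2, Plod3, P4ha1, Serpinh1 and Bmp1 did not pass, with differences from -0.32 to 0.44. With unmoderated variances (each gene's own spread, not drawn toward that of other genes), an alternative chosen after seeing the data, 0 of 10 passed in limma after adjustment, where 0.117% of all genes did, while the unadjusted 95% intervals of these 4 genes lay above 0, the lowest bound being 0.28 for Loxl3 (adjusted p = 0.0751 for Lox, 0.0932 for Loxl1, 0.0916 for Loxl2 and 0.117 for Loxl3). Leaving out control replicate 1, control 2 or 7 day replicate 2, 2 of 10 passed, where 0.532%, 0.649% and 0.577% of all genes did. At 28 days Loxl1 was higher than the markers by 1.23 (adjusted p = 0.0187), where 2.52% of all genes passed as higher. This ended with unmoderated variances (adjusted p = 0.268, where 0% of all genes passed as higher) and without control replicate 1 (adjusted p = 0.150).

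The 10 genes were set against their main substrates in the same way. The mean log2 value of Col1a1, Col1a2 and Col3a1, the chains of the fibrillar collagens I and III, was 2.41 higher at 7 days and 0.41 higher at 28 days than in control. Relative to that mean 9 of 10 genes were lower at 7 days, where 99.3% of all genes were, and with unmoderated variances also 9, where 97.8% were, so neither count sets the 10 genes apart. The median difference was -1.61 for the 10 genes and -2.27 for all genes. Loxl1, Loxl2 and Loxl3 differed from the collagens by -0.59, -0.88 and -0.91 (log2), and Plod1, Plod2, Plod3, P4ha1, Serpinh1 and Bmp1 by -1.53 to -2.29. Lox differed from the collagens by -0.14 (adjusted p = 0.617), with a 95% interval of -0.69 to 0.41, or -1.50 to 1.22 with unmoderated variances. Its sign turned with a pseudocount of 0.1 (0.19). Without control replicate 1 the count was 6 of 10, where 98.8% of all genes were lower.

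Levels were also set against that of Col1a1 in the same library, as a description. Serpinh1 stood at 712% and 711% of the Col1a1 RPKM in control, 225% and 211% at 7 days and 468% and 411% at 28 days. Plod1 went from 239% and 227% to 55.2% and 50.9%, and then to 156% and 132%. Lox stayed at 9.09% and 9.85% in control and 10.9% and 10.3% at 7 days, with 15.5% and 6.41% at 28 days. Loxl1 went from 51.6% and 57.7% to 37.8% and 30.5%, and reached 81.7% and 69.0% at 28 days, above both controls.

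Relative to the mean of the 3 collagens at 28 days, 1 of 10 genes passed, Plod2, which differed by -0.82 (log2, adjusted p = 0.0309), where 8% of all genes passed as lower. It did not pass with unmoderated variances (adjusted p = 0.328, where 0.027% of all genes passed as lower), nor when either control (0.625 and 0.415) or 28 day replicate 2 (0.228) was left out. Loxl1 was 0.71 above the collagens and did not pass (adjusted p = 0.0733).

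Other genes of collagen biosynthesis were counted by role, from a list of 59 genes of which 49 were tested. At 7 days 30 of the 49 were higher and 0 lower, where 13.2% of all genes were higher and 2.27% lower, with a median log2 change of 0.61 against 0.14 over all genes. At 28 days 3 were higher and 1 lower, where 2.87% and 1.54% of all genes were, with a median of 0.18 against 0.01. From 7 to 28 days 16 were lower, where 4.26% of all genes were. The same shares and medians of all genes apply to the counts by role.

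In prolyl hydroxylation 5 of 7 tested genes rose at 7 days. Crtap, a partner of prolyl 3-hydroxylase 1, rose by 0.93 (log2, adjusted p = 0.0359), from 9.32 and 10.6 RPKM to 19.7 and 19.1. Leprel1 and Leprel2, which encode prolyl 3-hydroxylases 2 and 3, rose by 0.82 and 0.76. P4ha2, the paralog of P4ha1, changed by 0.46 and did not pass (adjusted p = 0.0648).

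Among the partners of lysyl hydroxylation and the collagen glycosyltransferases 2 of 5 rose at 7 days. Ppib, the cyclophilin that works beside Crtap, rose by 0.64, and the galactosyltransferase Glt25d1 (now Colgalt1) by 0.44. Fkbp10, a partner of Plod2, changed by 0.43 and did not pass (adjusted p = 0.0887). In folding and export 4 of 13 rose, led by the disulphide isomerases Pdia3 (0.85) and Pdia4 (0.72) and the COPII coat gene Sec31a (0.52). Ctage5 (now Mia2), which helps large cargo leave the endoplasmic reticulum, was the 1 gene of the list that was lower at 28 days, when it fell by 0.51 (adjusted p = 0.0481).

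In propeptide removal 2 of 3 tested genes rose at 7 days, and both rose more than Bmp1 in these values. Adamts2, the procollagen N-proteinase, rose by 1.72 (log2, adjusted p = 0.000928). Pcolce, the enhancer that speeds Bmp1 on procollagen, rose by 1.48 and was still 0.78 higher at 28 days (adjusted p = 0.0186). The Bmp1 relatives Tll1 and Tll2 were below the limit for testing. Whether these rises differ from that of Bmp1 was not tested.

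Of other crosslinking genes 2 of 3 rose at 7 days, the peroxidasin gene Pxdn by 0.88 and the transglutaminase gene Tgm2 by 0.61. Among scaffolds and activators of lysyl oxidases and Bmp1, 7 of 8 rose. Postn, a scaffold for the activation of Lox by Bmp1 and also 1 of the activated fibroblast markers, rose by 3.38 at 7 days and by 0.88 at 28 days (adjusted p = 0.0075). Thbs1 rose by 2.82 and by 2.11 (adjusted p = 0.0313 at 28 days), with 28 day libraries far apart at 10.3 and 3.79 RPKM. Fn1, the fibronectin gene, rose by 2.37 at 7 days. Of the copper and ascorbate genes 1 of 3 rose, the copper chaperone gene Atox1, by 0.66. All 7 tested substrate genes (fibrillar collagen chains and elastin) rose at 7 days, among them Col3a1 by 2.60, Col1a1 by 2.53 and Col1a2 by 2.09, and 0 of 7 passed at 28 days.

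**Figure D4:**
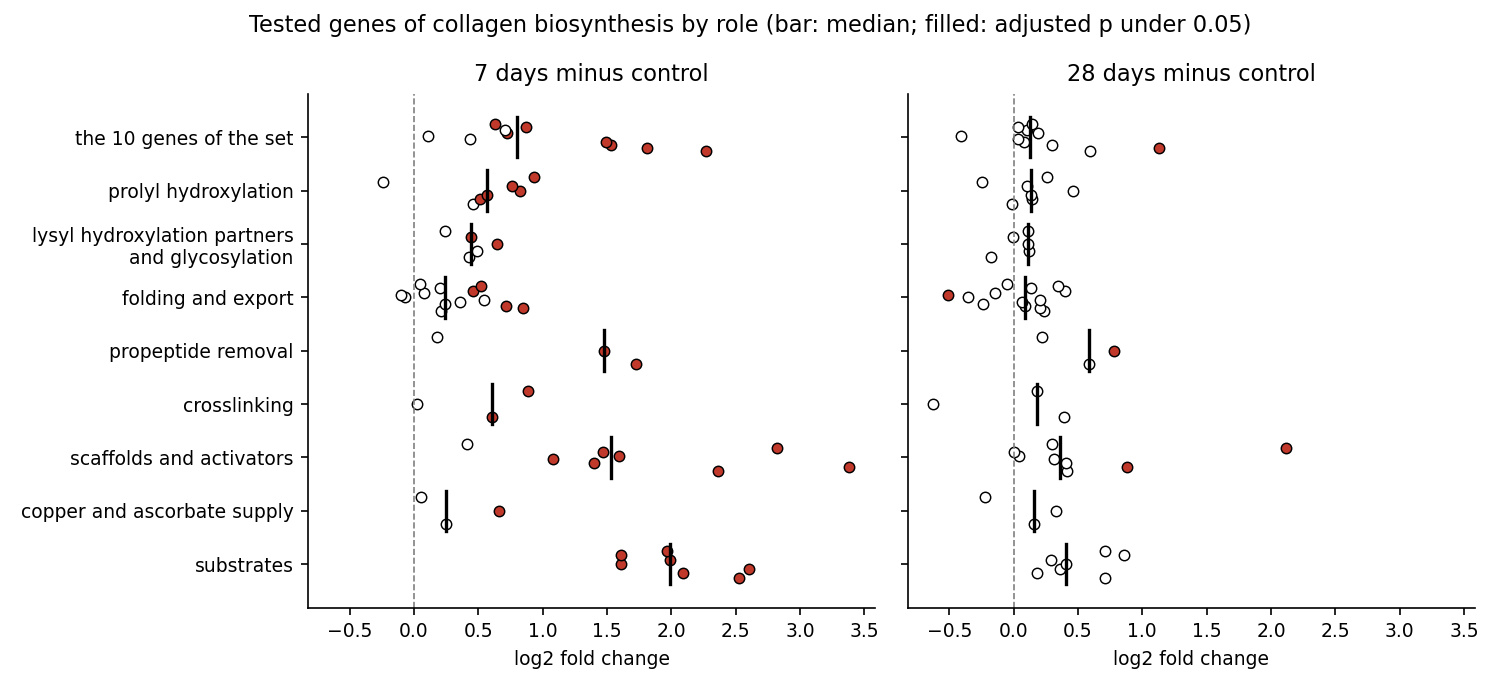
Log2 fold change (horizontal axes) of tested collagen biosynthesis genes by role at 7 days (left) and 28 days (right) against control. Each point is a gene, filled where its adjusted p is under 0.05, and bars are medians, which at 7 days run from 0.24 in folding and export to 1.99 in the substrates.

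The genes with the values most like those of Lox, Loxl1 and Plod2 over the 6 libraries were sought by the root mean square difference of centred log2 values among 10241 tested genes. For Lox they were Fbn1 (0.198), Cfb (0.203), Tnc (0.205), Sfrp1 (0.223) and Col5a2 (0.245), where the median over all candidates was 0.936. For Loxl1 they were Dbn1 (0.101), Col5a3 (0.137), Adamtsl2 (0.156), Itgb1bp3 (0.157) and Col4a2 (0.166), with a median of 0.719. For Plod2 they were Gtf2e2 (0.0297), Ttc23 (0.0403), Parg (0.0509), Fam18b (0.0513) and Trim68 (0.054), with a median of 0.262. None of the 5 for Plod2 is a gene of the collagen lists. Among the 10 genes themselves Bmp1 and Plod3 were most alike (0.0581) and Lox and Plod2 least (0.90).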

How the data were processed

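RNA sequencing of mouse hearts gave 1 table of RPKM values deposited by the authors for 6 libraries, RPKM being named in its headers. Per the submitters' processing notes DESeq2, HTSeq, Bowtie 0.12.9 and TopHat2 2.0.12 were used with the builds mm8 and mm9, in roles not stated. The sources used here do not give the annotation, strand use, read totals or the tool that made the RPKM, so counting error is unknown. Relative depth came from the most common ratio of low values within a preset range.

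RPKM were log2 transformed after adding 0.5. The 11096 of 22556 genes whose mean RPKM reached 1 were fitted in limma 3.58.1 (R 4.3.3) with group means of all 6 libraries, a mean-variance trend and moderated variances, and adjusted by Benjamini-Hochberg over all of them, with a threshold of 0.05 and 3 comparisons. For relative changes a reference (3 collagens, 5 fibroblast markers, Lox or Plod1) was subtracted in each library before the fit, and reference genes were left out. There the variances of all genes share the noise of the reference, so moderated p-values may be too small, and unmoderated variances were added after seeing the data. The scripts were tested on simulated data.

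The 10 genes, the pathway and marker lists and the tests were chosen with earlier results of these data known. All 10 genes are named, other pathway genes where they passed at 7 or 28 days, at most 3 a role, those with the largest change at 7 days. P4ha2, Fkbp10, Loxl4, Tll1, Tll2, Ctage5, Htra2 and Znhit1 were named outside this rule or after their values were seen. Older symbols were accepted. The alternatives tried were other pseudocounts, filters, scalings, no trend, 2 groups only, a replicate block and leaving out each library. Replicate numbers were not taken as pairs.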

Additional observations from a re-analysis of the deposited data

Results flagged for a closer look

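The change from control differed between 7 and 28 days for 5 genes, tested in limma as the difference between the infused groups, with Benjamini-Hochberg adjustment over all genes. The 28 day change minus the 7 day change was -1.67 for Lox, -1.23 for Loxl2, -1.41 for Loxl3, -0.52 for Plod2 and -0.83 for Serpinh1 on the log2 scale. Both 28 day libraries were below both 7 day libraries in these 5 genes as in the other 5, and in 41.2% of all genes. For Plod2 the difference arose from a small value above control at 7 days (0.11) and one below control at 28 days (-0.41), neither of which passed.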

How the results depend on the processing

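With 2 libraries a group the precision is low, and read depth is unknown. At 7 days the rises of Loxl1 and Loxl2 passed in all 15 alternatives and those of Lox and Loxl3 in all 14 that tested them (a mean RPKM of at least 5 left both out). The number of the 10 genes higher at 7 days was 4 by an unadjusted p with a fold limit, and 4 to 8 leaving out 1 library. At 28 days the number higher was 2 by an unadjusted p with a smaller fold limit than at 7 days, and 0 with no filter on low genes. Leaving out 1 library, the 28 day change of Loxl1 ran from 0.955 to 1.30. The number lower at 28 than at 7 days was 2 with no filter or a mean RPKM of at least 5. It was 3 with median ratio scaling, quantile normalization, no trend or only the 2 groups compared. Leaving out 1 library, this difference ran from -1.97 to -1.37 for Lox, -1.37 to -1.10 for Loxl2 and -1.57 to -1.26 for Loxl3. It ran from -0.54 to -0.50 for Plod2 and -1.01 to -0.66 for Serpinh1. By the unadjusted rules 3.48% of all genes passed as higher at 7 days and 4.35% at 28 days. These shares, like the counts, were taken at different fold limits and cannot be set side by side. The share passing as higher with no filter was 0.256% at 28 days, and that lower between the times was 1.36% to 4.06% under the settings named.

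Relative to collagens at 28 days 0 were lower with no filter, quantile normalization, no trend or unmoderated variances. The shares of all genes passing as lower were then 4.69%, 2.44%, 2.72% and 0.027%. Leaving out 1 library, the difference of Plod2 ran from -1.06 to -0.59 (log2). Relative to fibroblast markers 2 were higher at 7 days with a mean RPKM of at least 5, where 2.95% of all genes were. Only 8 members were tested there, without Lox and Loxl3. With unmoderated variances 0 were higher at 7 days (0.117% of all genes) and 0 at 28 days (0% of all genes). Leaving out 1 library, the differences at 7 days ran from 1.62 to 2.05 for Lox, 1.19 to 1.57 for Loxl1, 0.92 to 1.28 for Loxl2 and 0.92 to 1.21 for Loxl3. That of Loxl1 at 28 days ran from 1.01 to 1.45. Relative to Lox 1 of the other lysyl oxidases, Loxl2, was lower at 7 days with a pseudocount of 0.1, where 98.7% of all genes were.

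Deviations of same-numbered replicates were correlated over genes by 0.149 (control and 7 days), -0.019 (control and 28 days) and -0.014 (7 and 28 days). These values rest on 1 difference between replicates in each group, and cannot show whether libraries were paired. With a replicate block 9 of 10 genes were higher at 7 days (11.5% of all genes), 1 at 28 days (2.24%) and 6 lower between the times (2.91%), and 1 was higher relative to collagens at 28 days (1.47%).

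No value that passed changed sign. Among values that did not, Lox relative to collagens at 7 days became 0.19 with a pseudocount of 0.1, and Plod2 at 7 days -0.037 with median ratio scaling and -0.062 with quantile normalization. Quantile normalization also gave -0.043 for Plod1 and -0.085 for Serpinh1 at 28 days, and -0.012 for Plod1 relative to fibroblast markers at 7 days. Leaving out 1 library, 28 day changes ran from -0.10 to 0.17 for Plod1, -0.098 to 0.31 for P4ha1, -0.13 to 0.20 for Serpinh1, -0.073 to 0.24 for Loxl3 and -0.067 to 0.36 for Bmp1. Relative to collagens at 28 days they ran from -0.35 to 0.11 for Loxl2 and -0.34 to 0.70 for Lox. Relative to fibroblast markers they ran from -0.20 to 0.21 for Plod1 at 7 days, and at 28 days from -0.090 to 0.50 for P4ha1, -0.065 to 0.43 for Loxl3, -0.095 to 0.36 for Plod1, -0.12 to 0.39 for Serpinh1 and -0.059 to 0.55 for Bmp1. The cause of these changes was not tested.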
